A study of Mus musculus with 9 samples.

Results

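S100 genes encode small calcium-binding proteins, and 10 of them were followed here through RNA counts of sorted mouse pancreatic tumor cells: S100a1, S100a4, S100a6, S100a8, S100a9, S100a10, S100a11, S100a13, S100a14 and S100a16. They were taken by symbol, matched through their Ensembl identifiers, from 47643 genes in the files, and all 10 were among the 14105 genes tested. S100 proteins carry paired EF-hand loops, mostly work as dimers, and on binding calcium expose a surface that grips partners such as annexins and non-muscle myosin. Several are released from cells and act on receptors such as RAGE and Toll-like receptor 4, and in pancreatic ductal adenocarcinoma (PDAC) they are known both from the tumor epithelium and from the stroma and myeloid cells around it.

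The libraries came from mice in which Flp recombinase, driven by the Pdx1 promoter, recombined tumor alleles in the pancreas, among them a copy of Trp53. The alleles of KPF mice included Trp53 frt/+, Pdx-Flp and R26 FSF-CreER/Dual, and KPYYF mice carried all KPF alleles together with Yap flox/flox. Both received a tamoxifen diet after tumors could be felt, which activates CreER, switches the reporter from EGFP to tdTomato (Tm) and, in KPYYF mice, deletes Yap. GFP+Yap+ cells of 6 KPF libraries were compared with Tm+Yap- cells of 3 KPYYF libraries. The paper describes the Tm+Yap- cells as coming from relapsed nodules, which arose after extended tamoxifen treatment. Yap status, reporter color, recombination by CreER and growth as a relapse thus changed together and cannot be told apart. Mice of both sexes were used, at 5 to 35 weeks of age in the study as a whole. Libraries are named by their mouse numbers, and KPF 4504h and 4504s share a number, so they may come from a single animal.

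Each library held 8116539 to 9635514 reads on genes. The kit makes a tag near the 3′ end of each transcript, so counts scaled to library depth by TMM factors (CPM) were not divided by transcript length. Yap1, the deleted gene, averaged 99.3 ± 41.8 CPM (SD, n = 6) over KPF libraries and 3.56 ± 3.27 CPM (SD, n = 3) over KPYYF libraries. The sum of 8 ductal epithelial markers was 3238 to 11690 CPM in KPF and 570 to 1828 CPM in KPYYF libraries. Of the 8 markers, 3 were lower at an adjusted p under 0.05 in edgeR's quasi-likelihood test, against 0.794% of all genes. Reads of Xist, expressed from the inactive X chromosome of females, were 3452 or more in the KPYYF libraries and in KPF 4435, 4504h and 4504s, and 159 or fewer in the other 3. In bulk libraries such as these, fewer cells of a type and less RNA per cell cannot be told apart.

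The 10 genes lie in an S100 cluster on chromosome 3, between positions 90511034 and 93564643 of GRCm38 (GENCODE M21 annotation, mm10 being the build in the submitters' processing notes). RefSeq promoter windows of GRCm38.p6, each 300 bases long and reaching from before to just after a start site, were found for 8 of the 10 genes, as 9 windows. S100a10 and S100a14 had no entry. S100a1 and S100a13 stand head to head, with annotated gene starts 42 bases apart, so that their windows share 204 bases. The shared stretch is in capitals in the S100a13 window (chr3:90514185-90514484, + strand), shown because both genes were lower in every KPYYF library.
S100a13: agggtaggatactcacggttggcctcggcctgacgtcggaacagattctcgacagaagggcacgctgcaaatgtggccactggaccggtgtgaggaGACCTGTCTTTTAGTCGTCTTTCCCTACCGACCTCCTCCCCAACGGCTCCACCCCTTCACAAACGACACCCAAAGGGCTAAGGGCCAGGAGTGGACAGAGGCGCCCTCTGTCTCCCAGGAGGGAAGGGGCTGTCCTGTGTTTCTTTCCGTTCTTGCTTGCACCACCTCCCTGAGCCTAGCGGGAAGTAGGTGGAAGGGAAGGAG
The windows of S100a4 (chr3:90603520-90603819, + strand), S100a8 (chr3:90668821-90669120, + strand), S100a9 (chr3:90695672-90695971, - strand) and S100a11 (chr3:93520246-93520545, + strand) are shown because these genes had the highest and lowest fold changes or the most motif matches. Capitals mark matches to TATAAA, to the AP-1 motif TGANTCA, to the C/EBP motif TTGCNNAA and to the Grainyhead-like motif AACCNGTT, searched on both strands.
S100a4: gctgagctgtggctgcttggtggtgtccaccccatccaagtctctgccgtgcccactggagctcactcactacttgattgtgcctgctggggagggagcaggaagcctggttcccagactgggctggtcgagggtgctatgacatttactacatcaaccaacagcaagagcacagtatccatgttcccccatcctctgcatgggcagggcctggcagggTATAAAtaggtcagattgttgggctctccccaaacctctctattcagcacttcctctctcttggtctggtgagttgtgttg
S100a8: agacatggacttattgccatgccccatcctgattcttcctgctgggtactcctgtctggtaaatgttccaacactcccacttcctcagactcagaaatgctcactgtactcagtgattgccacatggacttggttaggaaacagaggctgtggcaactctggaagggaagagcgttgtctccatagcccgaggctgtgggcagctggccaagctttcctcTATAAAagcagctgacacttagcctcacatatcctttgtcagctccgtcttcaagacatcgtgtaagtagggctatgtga
S100a9: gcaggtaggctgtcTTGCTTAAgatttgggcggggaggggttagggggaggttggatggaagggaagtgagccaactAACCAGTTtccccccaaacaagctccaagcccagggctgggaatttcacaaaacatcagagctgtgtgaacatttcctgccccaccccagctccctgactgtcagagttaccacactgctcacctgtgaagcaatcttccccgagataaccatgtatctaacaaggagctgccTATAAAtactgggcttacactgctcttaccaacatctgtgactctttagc
S100a11: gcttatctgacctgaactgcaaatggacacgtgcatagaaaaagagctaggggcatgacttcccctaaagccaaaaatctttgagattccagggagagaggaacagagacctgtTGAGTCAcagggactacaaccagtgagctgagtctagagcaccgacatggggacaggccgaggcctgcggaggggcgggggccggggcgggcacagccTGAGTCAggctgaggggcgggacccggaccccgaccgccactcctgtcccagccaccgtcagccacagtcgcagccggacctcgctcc

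TATAAA was found in the S100a4, S100a8 and S100a9 windows and in 13.6% of all 32851 windows. The S100a11 window held 2 AP-1 matches, against a share of 7.81% of all windows with at least 1, and the second S100a16 window held 1. The S100a9 window held 1 match to the C/EBP motif, present in 10.8% of all windows, and 1 to the Grainyhead-like motif, present in 2.09%. None of the 9 windows held GGAATG, the core of the motif read by TEAD factors, the DNA-binding partners of Yap, which was in 14.7% of all windows. CpG dinucleotides numbered 15 in the S100a11 window, 14 in that of S100a13, 11 in that of S100a1 and 6 in that of S100a6, and 2 to 4 in those of S100a4, S100a8, S100a9 and S100a16, against a median of 7 over all windows. These matches describe the letters of the windows, and binding was not measured.

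Among the 10 S100 genes, S100a4 was the only one with a positive fold change in KPYYF cells, and the other 9 had negative ones. With Benjamini-Hochberg adjustment over all genes, edgeR's quasi-likelihood test called 0 of the 10 genes at 0.05, against 0.305% of all genes called higher and 0.794% called lower. At an unadjusted p under 0.05, 1 gene was higher, against 6.1% of all genes, and 5 were lower, against 10% of all genes. The same 6 were past the rule of the study, which adds a more than 2-fold change, when that rule was applied to edgeR's p values: S100a4 was higher, against 4.2% of all genes, and S100a1, S100a9, S100a11, S100a13 and S100a16 were lower, against 9.2%. All 3 KPYYF libraries lay below all 6 KPF libraries for S100a1, S100a9 and S100a13, which was so of 5.18% of all genes, and the opposite held for 0 of the 10 genes, against 3.92%. The median log2 fold change was -1.10 over the 10 genes and -0.07 over all genes tested. The DESeq2 Wald test called more of all 14105 genes, 269 higher and 928 lower, against edgeR's 43 and 112. Of the 10 it called 5, S100a4 as higher and S100a1, S100a9, S100a13 and S100a16 as lower. With its unadjusted p values, the test named in the study's methods, 1 gene was higher and 6 were lower by the rule, S100a8 being the addition. Limma-voom called 0 after adjustment, with 1 higher and 5 lower at an unadjusted p under 0.05. Without KPYYF 4449, edgeR's test called S100a1 and S100a16 (adjusted p = 0.0440 and 0.0420). Calls over all genes also rose in that setting, to 75 higher and 198 lower of 13830 genes tested.

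**Figure D1:**
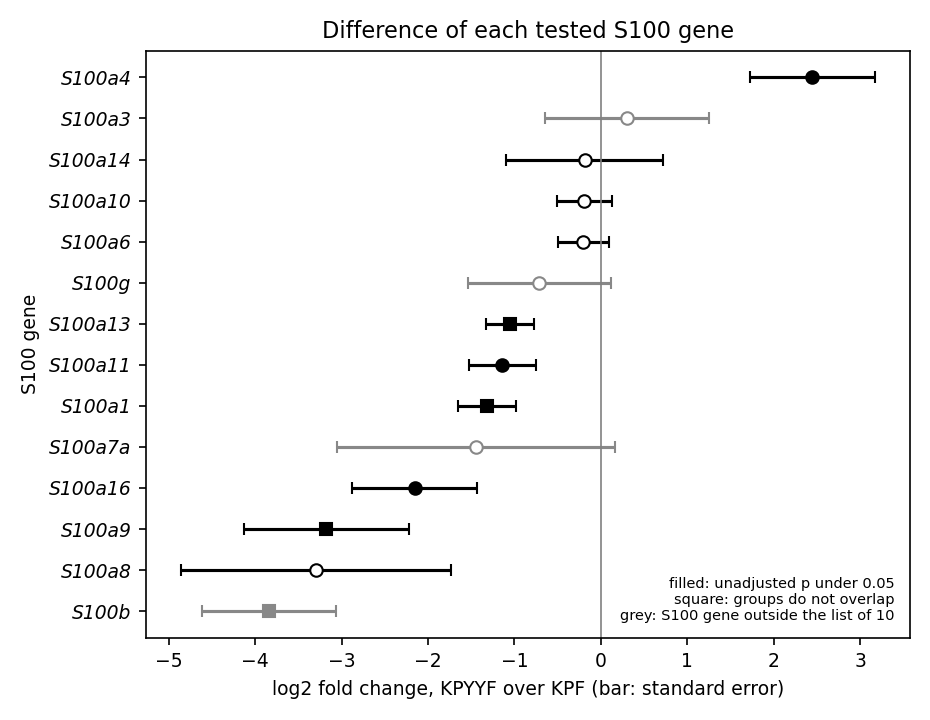
Log2 fold changes (KPYYF against KPF, x axis) with standard errors for the 10 S100 genes and 4 other tested S100 genes; filled symbols had an unadjusted p under 0.05, squares mark genes whose groups did not overlap, and grey marks genes outside the 10. S100a4 lies at 2.45 on the right, and S100b at -3.84 and S100a8 at -3.30 lie farthest to the left.

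S100a4, also called metastasin or fibroblast-specific protein 1, binds non-muscle myosin IIA and is known from mesenchymal cells and motile tumor cells. It ran from 125 CPM through a median of 336 to 867 CPM over the 6 KPF libraries, and was at 469 CPM in KPYYF 4449, 1674 CPM in KPYYF 4891 and 4456 CPM in KPYYF 4938. The last 2 were above every KPF library, and KPYYF 4449 lay inside the KPF range. The means were 404 ± 294 CPM (SD, n = 6) and 2199.5 ± 2045 CPM (SD, n = 3), a log2 fold change of 2.45 (SE 0.73, adjusted p = 0.139). The fold change rested in part on KPYYF 4938: without it the log2 value was 1.41 (adjusted p = 0.416), the upper end of a range of adjusted p values from 0.00337 to 0.416 over all alternatives. Myh9, the heavy chain of its myosin partner, averaged 683 ± 292 CPM over KPF and 454 ± 81.6 CPM over KPYYF libraries (log2 fold change -0.59, SE 0.34, adjusted p = 0.434).

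Fibroblast markers stood beside this gene as follows. Their sum was 414 to 5509 CPM over the KPF libraries, with the highest value in KPF 4504s, and 1434, 3381 and 1260 CPM in KPYYF 4449, 4891 and 4938. KPYYF 4938, with the most S100a4, thus had the lowest fibroblast sum of its group. Its single markers went both ways: Pdgfra (115.5 CPM) and Thy1 (129.5 CPM) were above every KPF library, and Col1a2 (49.2 CPM) was below. The other markers of the list lay inside the KPF range in this library. Of the 10 markers, 7 had positive and 3 negative fold changes, and 3, Pdgfra, Dpt and Thy1, were higher at an unadjusted p under 0.05, against 6.1% of all genes. Col1a1 and Col1a2, the major fibrillar collagen genes, had fold changes below 0, with log2 values of -1.46 (adjusted p = 0.482) and -1.71 (adjusted p = 0.512). The macrophage marker sum was highest in KPF 4601, at 10060 CPM, and this library also had the highest S100a4 of its group. In KPYYF 4938 the macrophage sum was 390 CPM. The part of fibroblasts and macrophages in the S100a4 values was not tested. KPF 4504s and 4601, at 632 and 867 CPM, were also the KPF libraries with the most S100a4. Without them, a choice made after the marker sums were seen, the log2 fold change of S100a4 was 3.28 (adjusted p = 0.0962). Leaving out the highest KPF values was bound to raise it, so this value cannot show the part of these cells.

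**Figure D2:**
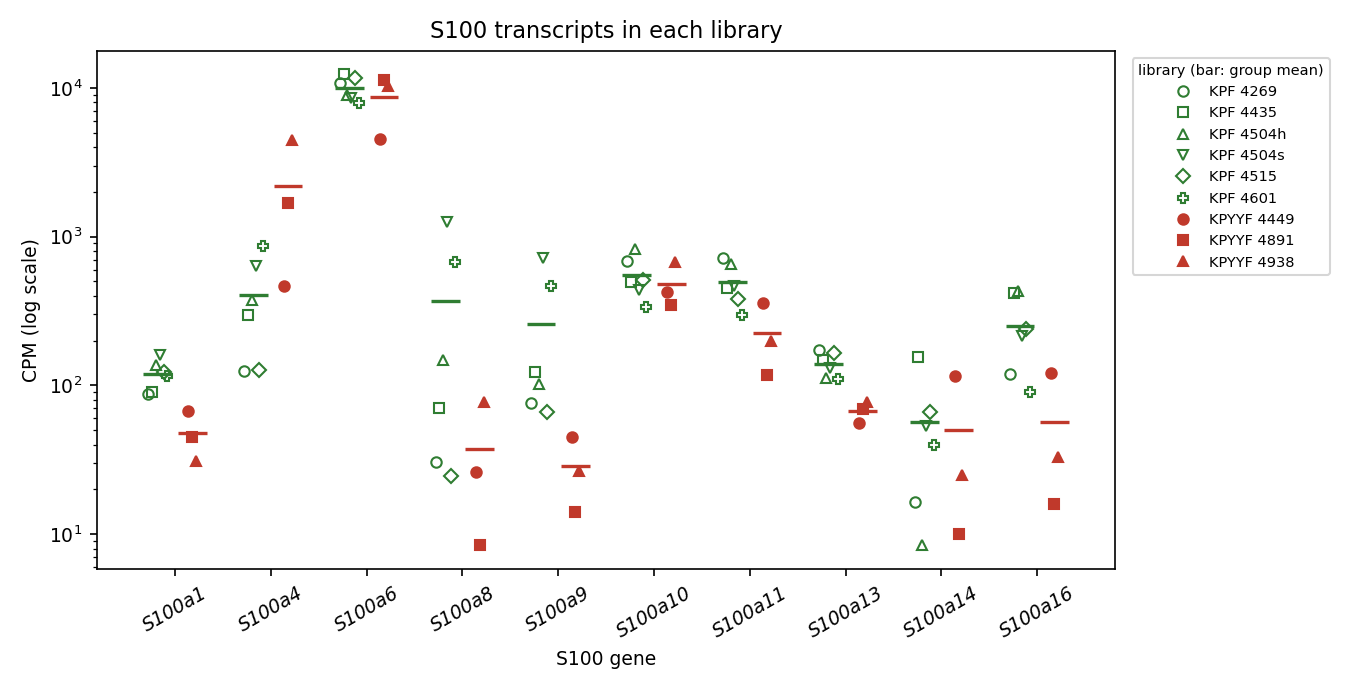
CPM (y axis, log scale) of each of the 10 S100 genes (x axis) in each KPF (open symbols) and KPYYF (filled symbols) library, with a bar at each group mean. S100a6 lies highest, between 4565 and 12352 CPM, S100a8 spreads over a 51.3-fold range among KPF libraries, and the KPYYF points of S100a1, S100a9 and S100a13 lie below all KPF points.

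S100a6, or calcyclin, was the most abundant of the 10, and its mean CPM ranked 4th of all genes tested. It ran from 7896 CPM through a median of 9952 to 12352 CPM in KPF libraries and was at 4565, 11333 and 10282 CPM in KPYYF 4449, 4891 and 4938. The lowest value of all was that of KPYYF 4449, and the other 2 lay inside the KPF range. No difference passed the test (10058 ± 1815 CPM, SD, n = 6, against 8727 ± 3643 CPM, SD, n = 3, log2 fold change -0.20, SE 0.29, adjusted p = 0.799), and the sign turned without KPYYF 4449, to 0.10. Cacybp, which encodes the calcyclin-binding protein, a part of ubiquitin ligase complexes, averaged 42.95 ± 13.2 CPM over KPF and 118 ± 51.1 CPM over KPYYF libraries. Its lowest KPYYF value, 76.3 CPM, was above its highest KPF value, 58.9 CPM, while the log2 fold change of 1.46 (SE 0.36) had an adjusted p of 0.0753.

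S100a10 and S100a11 are known for their binding to annexins, as are some other members. S100a10 holds annexin A2 in a heterotetramer at the membrane, where it serves as a receptor for plasminogen, and it is unusual in the family in not needing calcium. S100a10 ran from 335 CPM through a median of 505 to 823 CPM in KPF libraries, and its KPYYF values of 424, 345 and 672 CPM all lay inside that range. The log2 fold change was -0.19 (SE 0.32, adjusted p = 0.836). S100a11 binds annexin A1 and takes part in membrane repair and growth control of epithelial cells. It ran from 298 CPM through a median of 457 to 716 CPM in KPF libraries, and KPYYF 4891 (117 CPM) and KPYYF 4938 (199 CPM) lay below all of them. KPYYF 4449, at 356 CPM, lay inside the KPF range. The means of S100a11 were 494 ± 161 CPM (SD, n = 6) and 224 ± 121 CPM (SD, n = 3), and the log2 fold change of -1.14 (SE 0.39) had an unadjusted p of 0.0110 and an adjusted p of 0.165 in edgeR's quasi-likelihood test. Without KPYYF 4891 it was -0.83 (unadjusted p = 0.0595), so S100a11 was then no longer past the rule of the study.

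The partners of these proteins were Anxa2 and Anxa1. Anxa2 averaged 1862 ± 355 CPM (SD, n = 6) over KPF and 1015 ± 354 CPM (SD, n = 3) over KPYYF libraries, and its log2 fold change was -0.88 (SE 0.28, unadjusted p = 0.00793, adjusted p = 0.145 in edgeR's quasi-likelihood test). Its largest KPYYF value, 1413 CPM, was above its smallest KPF value, 1314 CPM. Anxa1 was at 323 ± 249 CPM and 537 ± 366 CPM, with a log2 fold change of 0.73 (SE 0.59, adjusted p = 0.600). S100a10 and Anxa2 thus had fold changes of the same sign and different size, and the difference between them was not tested. Of the 12 intracellular partners listed, 10 were tested, with 3 positive and 7 negative fold changes, a median log2 fold change of -0.60 and 0 calls after adjustment. At an unadjusted p under 0.05, Cacybp was higher (against 6.1% of all genes) and Anxa2 and Fgf1 were lower (against 10%).

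Genes of plasminogen activation, the extracellular process that the S100a10 and annexin A2 complex serves, had negative fold changes in 4 of the 5 tested, with a median log2 fold change of -1.45. By the rule of the study, 3 were lower, against 9.2% of all genes, and 0 were higher, against 4.2%, and 0 were called after adjustment in edgeR's quasi-likelihood test. Plat, the tissue plasminogen activator, ran from 57.3 to 248 CPM in KPF libraries, and the KPYYF values of 46.9, 33.8 and 46.7 CPM lay below all of them (log2 fold change -1.98, SE 0.44, adjusted p = 0.0506). Plaur, the urokinase receptor, had a log2 fold change of -1.45 (SE 0.52, adjusted p = 0.185). Plg, the gene of plasminogen itself, had 0 reads in all libraries.

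S100a8 and S100a9 encode the partners that form calprotectin, the major cytosolic protein of neutrophils, which chelates zinc and manganese and signals through Toll-like receptor 4 and RAGE. S100a8 ran from 24.5 CPM through a median of 109.4 to 1254 CPM over KPF libraries and was at 26.4, 8.42 and 77.2 CPM in KPYYF 4449, 4891 and 4938. The groups overlapped, and the log2 fold change of -3.30 had an SE of 1.56 (unadjusted p = 0.0649, adjusted p = 0.349 in edgeR's quasi-likelihood test). With DESeq2 the log2 fold change of S100a8 was -3.28 (unadjusted p = 0.0107, adjusted p = 0.0931), past the rule of the study. In edgeR's test the unadjusted p was also under 0.05 without KPF 4269 (0.0381), KPF 4435 (0.0492) or KPF 4515 (0.0366). These KPF libraries had the least S100a8, so leaving any of them out was bound to deepen the fold change. With only the libraries of at least 1000 Xist reads, edgeR's unadjusted p was 0.0320. The adjusted p of S100a8 ran from 0.0931 to 0.713 over all alternatives. S100a9 ran from 65.9 CPM through a median of 113 to 715 CPM over KPF libraries and was at 45.1, 14 and 26.5 CPM in KPYYF libraries. Here the groups did not overlap, and the log2 fold change was -3.18 (SE 0.95, unadjusted p = 0.00749, adjusted p = 0.141 in edgeR's quasi-likelihood test). The means of S100a9 were 258 ± 270.2 CPM (SD, n = 6) and 28.5 ± 15.7 CPM (SD, n = 3).

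Both genes were highest in the KPF libraries with the most RNA of myeloid markers. KPF 4504s had 1254 CPM of S100a8 and 715 CPM of S100a9, and KPF 4601 had 679 and 468 CPM, while no other library was above 148 CPM of S100a8 or 123 CPM of S100a9. The sum of 12 neutrophil markers was 752 CPM in KPF 4504s and 1407 CPM in KPF 4601, against 82.5 to 192 CPM in the other 4 KPF libraries and 59.0 to 105 CPM in the KPYYF libraries. The sum of 10 macrophage markers was 1586 and 10060 CPM in the same 2 libraries, against 368 to 618 CPM in the other KPF libraries and 390 to 756 CPM in the KPYYF libraries. The 2 libraries high in calprotectin were thus the 2 highest for both marker sums, though the sort was on the reporter. Among genes of neutrophil granule proteins, Camp and Ngp were highest in KPF 4504s, at 151 and 303 CPM, Mmp8 and Mmp9 in KPF 4601, at 41 and 186 CPM, and Ltf in KPF 4515, at 69.2 CPM. Cxcr2, a neutrophil chemokine receptor, was highest in KPF 4601, at 24.2 CPM. Ly6g, a defining neutrophil marker, was at 0 reads in KPF 4269, 4435, 4504h and 4515 and in KPYYF 4891 and 4938, and was highest in KPYYF 4449, at 23.0 CPM.

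Of the 12 neutrophil markers, 11 had negative fold changes and 5 were lower at an unadjusted p under 0.05, against 10% of all genes, with a median log2 fold change of -3.16. All 10 macrophage markers had negative fold changes, with 0 past an unadjusted p of 0.05 and a median of -1.75. Without KPF 4504s and 4601, a choice made after the marker sums were seen, the log2 fold change of S100a8 was -0.85 (SE 0.81, adjusted p = 0.713) and that of S100a9 was -1.67 (SE 0.45, unadjusted p = 0.00317, adjusted p = 0.126). Leaving out the highest KPF values of both genes was bound to shrink these fold changes, so they cannot show the part of myeloid RNA. S100a9 stayed past the rule of the study without these libraries, at a smaller fold change. The part of myeloid RNA in the S100a8 and S100a9 values was not tested. The ratio of S100a8 to S100a9 reads also varied: it was 1.45 in KPF 4504h, 1.75 in KPF 4504s, 1.45 in KPF 4601 and 2.91 in KPYYF 4938, and 0.371 to 0.602 in the other 5 libraries. So S100a8 outnumbered S100a9 in both libraries with the highest myeloid marker sums and in 2 libraries without them.

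**Figure D3:**
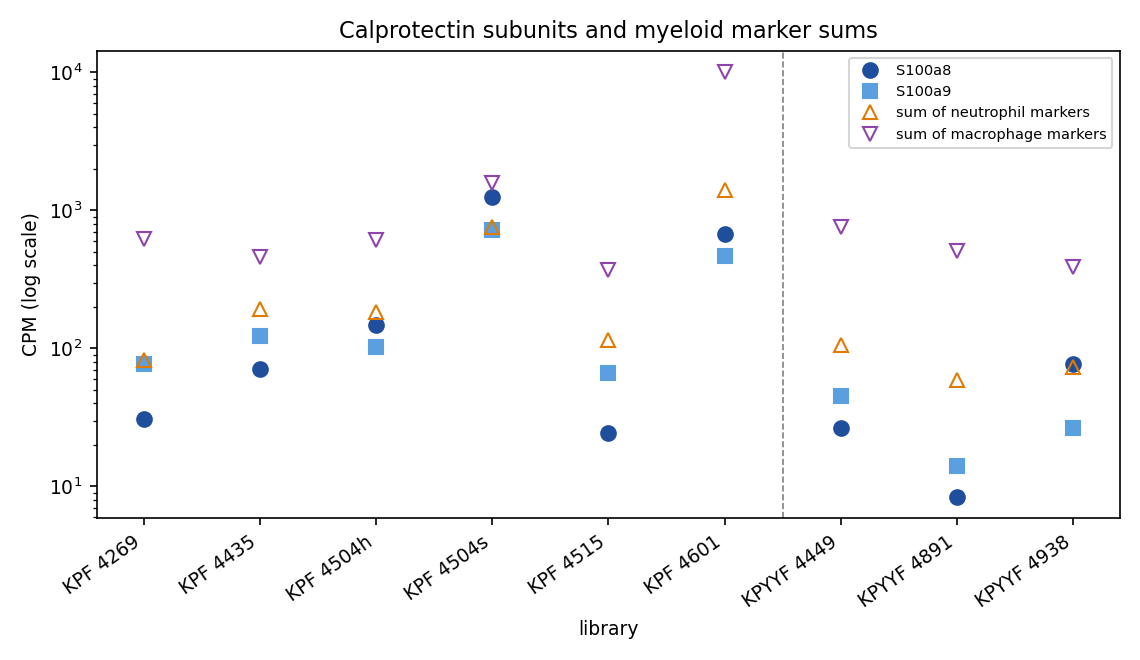
CPM (y axis, log scale) of S100a8 and S100a9 and the summed CPM of 12 neutrophil and 10 macrophage markers in each library (x axis, KPF left of the dashed line, KPYYF right). All 4 are highest in KPF 4504s and KPF 4601, where the neutrophil sums are 752 and 1407 CPM, against 59.0 to 105 CPM in the KPYYF libraries.

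S100a1 and S100a13, the head-to-head pair, were both low in every KPYYF library and spread the least among libraries of the 5 lower genes, with a highest to lowest ratio of 1.82 and 1.58 over KPF libraries. S100a1 is best known from muscle, where it tunes calcium release, and S100a13 carries FGF1 out of cells by a route without a signal peptide. S100a1 ran from 88.1 CPM through a median of 120.1 to 161 CPM in KPF libraries and was at 67.8, 45.2 and 31.0 CPM in KPYYF 4449, 4891 and 4938. S100a13 ran from 109.9 CPM through a median of 140 to 174 CPM in KPF libraries and was at 56.2, 69.3 and 77.7 CPM in the KPYYF libraries. The order of the 3 KPYYF libraries was opposite in the 2 genes. S100a1 had a log2 fold change of -1.32 (SE 0.34, unadjusted p = 0.00173, adjusted p = 0.0851) and S100a13 one of -1.05 (SE 0.28, unadjusted p = 0.00232, adjusted p = 0.0933) in edgeR's quasi-likelihood test. The two-sided exact permutation p was 0.0119 for each, the smallest that 6 libraries against 3 allow. This permutation p was 0.0238 for S100a11, 0.0357 for S100a9 and S100a16, and 0.0595 for S100a4. For S100a6, S100a8, S100a10 and S100a14 it was 0.167 or more. Over all alternatives the adjusted p ran from 0.00669 to 0.234 for S100a1 and from 0.0101 to 0.259 for S100a13, in each case lowest with DESeq2.

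Fgf1, the cargo of S100a13, was at 14.8 ± 8.90 CPM (SD, n = 6) in KPF libraries and had 1, 1 and 11 reads in KPYYF 4449, 4891 and 4938, so 2 of the 3 were under the limit of 3 reads that a count of 0 allows. The fitted log2 fold change was -4.91 (SE 1.11, unadjusted p = 0.000674, adjusted p = 0.0531 in edgeR's quasi-likelihood test), and at so few reads its size depends on the fit.

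S100a14 and S100a16 are epithelial members that can pair with each other. S100a16 ran from 90.7 CPM through a median of 227 to 433 CPM in KPF libraries, and KPYYF 4891 (16.1 CPM) and KPYYF 4938 (33.0 CPM) lay below all of them. KPYYF 4449, at 121 CPM, lay above the lowest KPF libraries, 4601 and 4269. The means were 253 ± 146 CPM (SD, n = 6) and 56.8 ± 56.5 CPM (SD, n = 3), a log2 fold change of -2.15 (SE 0.72, unadjusted p = 0.0125, adjusted p = 0.171 in edgeR's quasi-likelihood test). It was -3.36 (adjusted p = 0.0420) without KPYYF 4449 and -1.88 (unadjusted p = 0.0518, adjusted p = 0.358) without KPYYF 4938, over an adjusted p range of 0.00867 to 0.358. S100a14 ran from 8.48 CPM through a median of 46.7 to 156 CPM in KPF libraries and was at 115, 9.95 and 25.0 CPM in KPYYF 4449, 4891 and 4938, so all 3 lay inside the KPF range. Its log2 fold change was -0.19 (SE 0.91, adjusted p = 0.953), and its sign turned without KPF 4435 (0.43), without KPYYF 4891 (0.30) or without KPYYF 4938 (0.13), while without KPYYF 4449 it was -1.70 (adjusted p = 0.429, over a range of 0.429 to 0.975).

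KPYYF 4449 had the highest S100a1, S100a9, S100a11, S100a14 and S100a16 of its group and the lowest S100a4, S100a6 and S100a13. It also had the highest ductal marker sum of the 3, 1828 CPM, against 570 CPM in KPYYF 4891 and 686 CPM in KPYYF 4938. Krt19, a ductal keratin gene, was at 119 CPM there and at 23.7 and 18.2 CPM in KPYYF 4891 and 4938. Muc1, of the same marker list, went the other way, at 9.02 CPM in KPYYF 4449 and 18.9 and 23.5 CPM in KPYYF 4891 and 4938. Across the KPF libraries the ductal sum was highest in KPF 4515 (11690 CPM), where S100a14 was at 66.7 CPM and S100a16 at 239 CPM, and lowest in KPF 4504h (3238 CPM), where S100a14 was at its lowest, 8.48 CPM, and S100a16 at its highest, 433 CPM. The part of epithelial identity in these S100 values was not tested.

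Reads of all 10 S100 genes together made 0.905 to 1.48% of gene reads in KPF libraries, and 0.648, 1.44 and 1.66% in KPYYF 4449, 4891 and 4938. The KPYYF libraries thus held both the lowest and the highest share. S100a6 alone gave 67.8 to 87.2% of these reads in KPF and 64.8 to 83.1% in KPYYF libraries. S100a4 gave 0.958 to 7.96% of them in KPF libraries and 7.51, 12.3 and 28.1% in KPYYF 4449, 4891 and 4938, so its portion in KPYYF 4449 lay inside the KPF range and the other two lay above it.

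**Figure D4:**
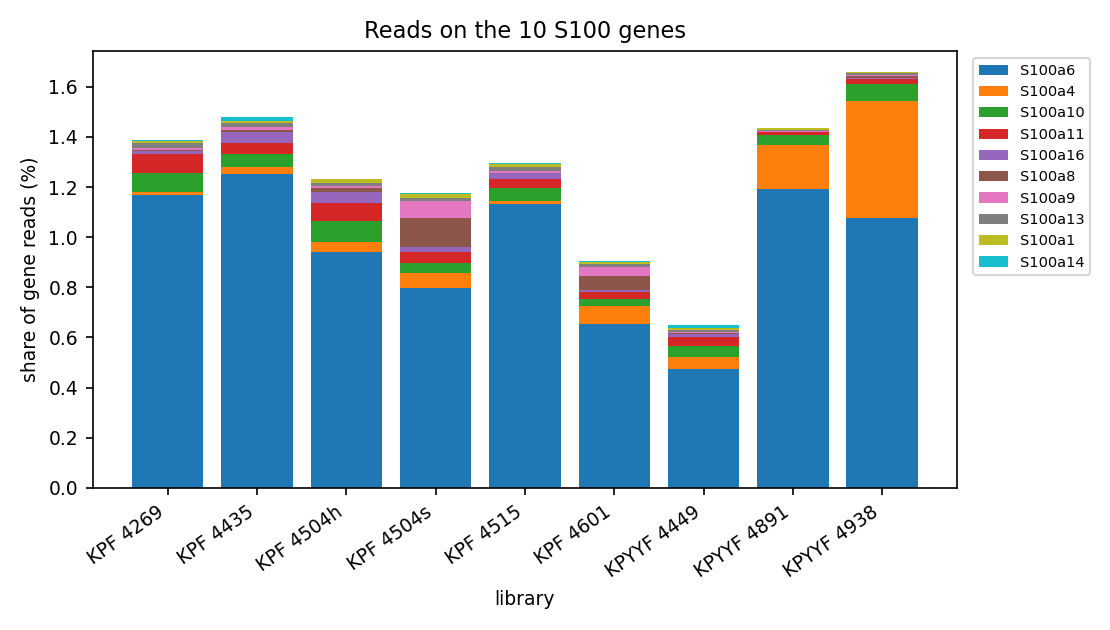
Share of gene reads (%, y axis) taken by each of the 10 S100 genes, stacked, in each library (x axis). S100a6 fills most of each bar, the total is lowest in KPYYF 4449 (0.648%) and highest in KPYYF 4938 (1.66%), where S100a4 is 0.466% of gene reads.

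No receptor of released S100 proteins was called after adjustment. Ager, which encodes RAGE, averaged 4.38 ± 2.21 CPM over KPF and 3.04 ± 2.52 CPM over KPYYF libraries (log2 fold change -0.52, SE 1.16, adjusted p = 0.884). Bsg and Nptn encode related immunoglobulin-type membrane proteins that can bind calprotectin. Bsg had a log2 fold change of -0.79 (SE 0.33, unadjusted p = 0.0320, adjusted p = 0.252) and Nptn one of 0.58 (SE 0.24, unadjusted p = 0.0303, adjusted p = 0.247 in edgeR's quasi-likelihood test), with each KPYYF value of Nptn above each KPF value. Of the 8 receptors tested, 3 had positive and 5 negative fold changes, with a median log2 fold change of -0.51 and 0 past the rule of the study in either direction.

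Outside the 10, the only S100 gene called after adjustment was S100b, on chromosome 10 (76253853 to 76261159), which encodes a protein best known from glia, Schwann cells and melanocytes. S100b averaged 59.3 ± 25.3 CPM (SD, n = 6) over KPF and 4.13 ± 3.42 CPM (SD, n = 3) over KPYYF libraries, and it fell with a log2 fold change of -3.84 (SE 0.77, adjusted p = 0.0357 in edgeR's quasi-likelihood test). KPF libraries ran from 15.8 CPM through a median of 61.1 to 90.9 CPM, and KPYYF 4449, 4891 and 4938 were at 7.36, 0.547 and 4.49 CPM, so the groups did not overlap. The call held in 8 of 18 alternatives, 3 of them among the 9 that left out a library, over an adjusted p range of 1.2e-06 to 0.178, and it ended without KPF 4269 (0.0615), KPF 4504h (0.0536), KPF 4504s (0.0741), KPF 4515 (0.0736), KPYYF 4891 (0.0553) or KPYYF 4938 (0.128). It also ended when the counts of KPF 4504h and 4504s, possibly from a single animal, were summed (0.0562), without both KPF 4504s and 4601 (0.0889), with limma-voom (0.153) and with only the libraries of at least 1000 Xist reads (0.178). The Schwann cell markers Sox10, Foxd3 and Cdh19 had 0 reads in every library, and the sum of 5 such markers was at most 6.13 CPM in KPF and 0 in KPYYF libraries. S100b overlaps Dip2a on the opposite strand, and whether counting used strand is not given in the sources used here.

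The remaining S100 genes were scarce. The log2 fold change was 0.30 for S100a3 (adjusted p = 0.923), -0.71 for S100g (adjusted p = 0.738) and -1.44 for S100a7a (adjusted p = 0.726), none past the test. S100a5 and S100z had 48 and 96 reads over all libraries, too few to be tested, and S100a7l2 had no identifier in the annotation used. S100a2 had 69 reads, all of them in KPYYF 4449 (8.19 CPM), and it overlaps S100a3 on the same strand, so reads of the pair could be split unevenly. S100pbp, which encodes an S100-binding protein, had a log2 fold change of 0.02 (adjusted p = 0.988).

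The annotation places 121 genes between the outermost S100 genes of the cluster, many of them for keratinocyte proteins, and 77 had no reads. Of the 22 tested, 12 were S100 genes and 10 were others, of which 7 had negative and 3 positive fold changes, and 0 were called after adjustment in edgeR's quasi-likelihood test. At an unadjusted p under 0.05, 2 were higher, against 6.1% of all genes, and 2 were lower, against 10%. All of them were small proline-rich genes, which encode cornified envelope proteins. Sprr1a had 529 to 4909 reads in KPF libraries and 417, 75 and 585 reads in KPYYF 4449, 4891 and 4938 (log2 fold change -2.56, SE 0.83, adjusted p = 0.165). Scaled to depth, its KPYYF values lay below all KPF values. Sprr2k had 64, 10 and 533 reads in KPYYF 4449, 4891 and 4938 and 0 to 20 reads in KPF libraries (adjusted p = 0.121), and 104 of the 107 reads of Sprr1b were in KPYYF 4938 (adjusted p = 0.183). Sprr2a3 had 0 reads in all KPYYF libraries and 0 to 76 in KPF libraries (adjusted p = 0.127). The Sprr2 genes are similar copies of each other, so reads among them are uncertain.

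**Figure D5:**
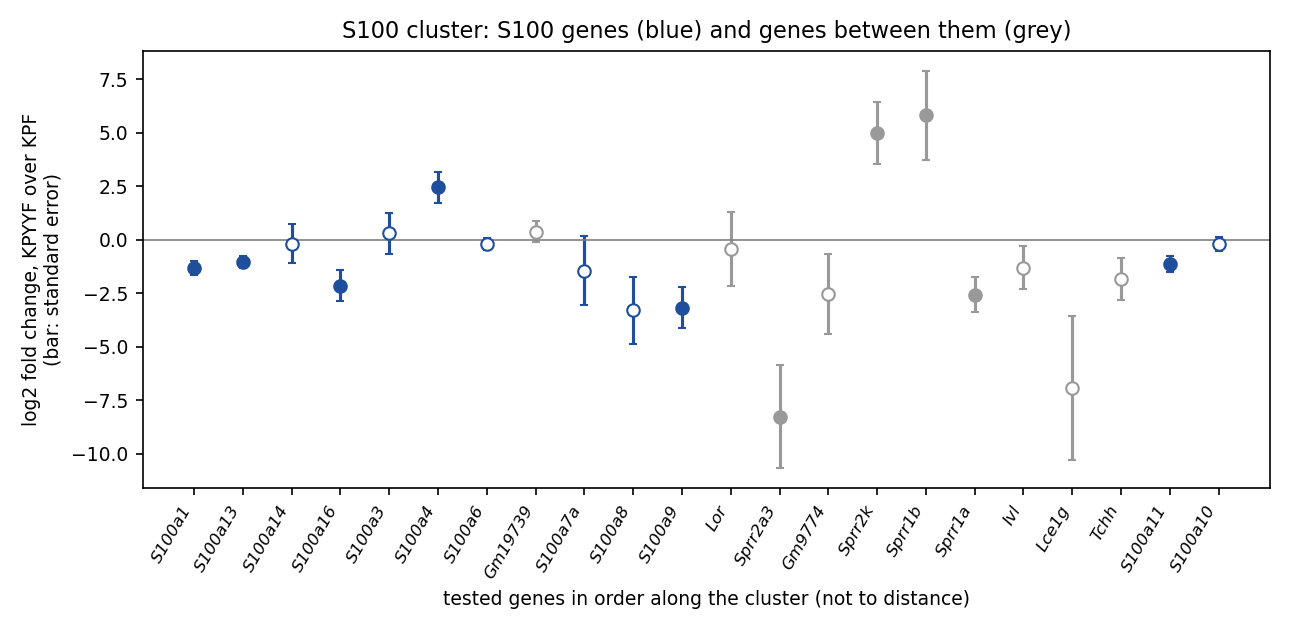
Log2 fold changes (KPYYF over KPF, y axis) with standard errors of the 22 tested genes of the chromosome 3 cluster, in their order along it (x axis, not to distance), S100 genes in blue and others in grey, filled at an unadjusted p under 0.05. S100a4 at 2.45 stands among S100 genes at or below 0.30, and fitted values of small proline-rich genes run from -8.26 (Sprr2a3, with 0 reads in KPYYF libraries, so no measure of size) to 5.81 (Sprr1b).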

How the data were processed

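RNA of FACS-sorted GFP+Yap+ (KPF) and Tm+Yap- (KPYYF) tumor cells was made into 3′ end libraries (Lexogen QuantSeq Forward kit). The authors deposited raw read counts per Ensembl gene for each library, without normalization. The submitters' processing notes name STAR, HTSeq and mm10, with versions, annotation release and strand setting not given in the sources used here, while the paper's methods describe BeadChip hybridization and DESeq2. Of the reads listed, 37.3 to 42.0% were on genes, 43.8 to 53.4% had no unique alignment, 8.63 to 16.0% fell on no feature and 0.231 to 0.312% were ambiguous. These summary lines were left out of library sizes and tests.

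Of 47643 genes, 47224 matched a symbol in GENCODE M21. Genes with a sum of at least 100 reads were tested with edgeR 4.0.16's quasi-likelihood test (R 4.3.3, TMM factors 0.833 to 1.08, no covariates, two-sided), and p values were adjusted by Benjamini-Hochberg over all 14105 genes, with a threshold of 0.05. The common biological coefficient of variation was 0.825. A prior count of 2 entered the log2 CPM of each library, exact permutation tests used all 84 regroupings of the libraries, and a count of 0 allows up to 3 reads, or 0.292 to 0.437 CPM. This limit covers counting error only. Libraries were taken as replicates, and where they share an animal p values measure a smaller spread.

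The members and gene lists were chosen with earlier results of these data known. All S100 genes, Anxa2, Anxa1, Cacybp, Myh9, Ager and Yap1 were named by rule, as were other partner, receptor, plasminogen and cluster genes with an unadjusted p under 0.05 (at most 5 of the cluster). Plg, S100a2, S100pbp and single markers, and the TATAAA motif, were chosen after values or sequences were seen. Alternatives were DESeq2 1.42.0, limma-voom 3.58.1, RLE and upper quartile normalization, other filters, 4504h and 4504s summed, libraries with at least 1000 Xist reads, and each library left out. Fits were tested on simulated data. An allele that both groups carry and the values of 1 gene counted in a list are not reported here. Figures were drawn with matplotlib 3.10.9.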

Additional observations from a re-analysis of the deposited data

Results flagged for a closer look

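S100b in KPF 4435 was at 15.8 CPM, far below the other 5 KPF libraries, which had 52.2 to 90.9 CPM. Its gap to the nearest of them was 0.682 of the range of the group on the log2 scale. About 1 in 20 groups of this kind is picked out by chance, and the 10 S100 genes and S100b were all screened in this way.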

How the results depend on the processing

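Library KPF 1 to 6 in the order of mouse numbers were 4269, 4435, 4504h, 4504s, 4515 and 4601, and KPYYF 1 to 3 were 4449, 4891 and 4938. No paired analysis was possible because the labels give the groups no shared replicate numbers. With an adjusted p under 0.05, 0 of the 10 S100 genes were called in edgeR's quasi-likelihood test, against 1 higher and 4 lower with DESeq2. Over all genes, DESeq2 called 269 higher and 928 lower, against 43 and 112 in edgeR's test. With each library left out, 0 were called higher and 0 to 2 lower, the 2 being without KPYYF 4449. That setting also had more calls over all genes, 75 higher and 198 lower. Past the rule of the study, 1 gene was higher and 5 were lower, and without KPYYF 4938 the number higher was 0, so the range with each library left out was 0 to 1. The number lower ran from 4 to 6 with each library left out. It was 6 without KPF 4435 and 4 without KPYYF 4449, KPYYF 4891 or KPYYF 4938. Of the partner, receptor and plasminogen genes, 1 was higher by that rule, and 2 were without KPF 4269, which gave a range of 1 to 2, or with only the libraries of at least 1000 Xist reads, where 2 were higher. With each library left out, the log2 fold change of S100a6 ran from -0.44 to 0.10, the latter without KPYYF 4449, and that of S100a14 from -1.70 without KPYYF 4449 to 0.43, at 0.43 without KPF 4435, 0.30 without KPYYF 4891 and 0.13 without KPYYF 4938. The cause was not tested. With low counts left in, the median log2 fold change of all genes was -0.31, against -0.07. With 3 KPYYF libraries and a biological coefficient of variation of 0.825, smaller differences of these genes may go undetected.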
